A study of Mus musculus with 48 samples.

Results

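Transcript levels in the mouse hypothalamus and preoptic area, the ventral forebrain territory that governs hormone release, feeding, body temperature and reproduction, were compared between a late and an early fetal window. The early window held the arrays of embryonic days 15 and 16 (E15 and E16) and the late window those of E17 and E18. All 16 arrays of these 4 ages were taken, 8 per window, out of 48 arrays of 12 ages in the series. Each age had 4 arrays of total RNA, from both sexes of the inbred strain C57Bl/6 and of the outbred stock CD-1. The animals were kept on chow and a fixed light cycle, the tissue was microdissected into a preservative, and the labels name no mutation, transgene or agent. Each combination of age, strain and sex had a single array, and the number of embryos behind it is not given. The p-values therefore set each change against the spread between these arrays, which may be partly technical, and the number of arrays limits their precision. In the comparison of the windows, this spread also holds any change between the ages pooled in a window.

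In the fetal hypothalamus radial glia line the third ventricle, divide there and produce neurons before they turn to astrocytes and oligodendrocyte precursors. Notch receptors and Hes repressors keep them dividing, proneural factors such as Neurog2 commit their daughters to a neuronal fate, and nuclear factor I, Sox9, cytokine and Olig proteins act in the turn to glia. Young neurons meanwhile start to make neuropeptides, receptors and vesicle proteins, and most myelin is laid down after birth.

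Levels are given as MAS5 signal, the array brightness of a probe set on a linear scale. Changes are late minus early on the log2(signal + 16) scale, with strain as a covariate and with the standard error of the limma fit, and folds are on the same scale, which understates changes of dim genes. A gene was called when its adjusted p (limma, Benjamini-Hochberg over 11928 genes) was under 0.05. Arrays are named by strain, age and sex. The median signal of an array was 59.7 to 64.4 in C57Bl/6 and 52.3 to 56.0 in CD-1, and arrays correlated at 0.898 to 0.983 with each other over genes. The array labelled C57Bl/6 E16 male carried the female transcript Xist at 1846, against 74.1 to 125 in the other 7 male arrays and 2451 to 4137 in the 8 female arrays, beside the Y-linked Eif2s3y at 60.4 (105 to 166 in the other males, at most 20.4 in females). It correlated best with the array labelled C57Bl/6 P42 male (0.984). Every C57Bl/6 array of these ages correlated with that P42 array at 0.971 to 0.984, and the CD-1 arrays at 0.928 to 0.965. A high correlation with it was thus not particular to E16, and the label of the P42 array was not tested. The array labelled C57Bl/6 E16 male was kept in its labelled group, and the counts without it are given with the strains. The hypothalamic factor Otp read 949 or more and Isl1 904 or more in each of the 16 arrays. The pituitary hormone genes Gh, Prl and Cga did not pass the filter on low signal, reading at most 65.6. Collagen genes of the meninges moved with the windows in C57Bl/6, and counts with their level as a covariate are given with the meningeal genes.

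Of 11928 genes, 2106 (17.7%) were called between the windows, 1192 (9.99%) higher and 914 (7.66%) lower at E17 and E18. The counts of every gene list below are to be read beside these shares. Most changes were small. The median called gene moved by 0.353 on the log2 scale, and 28 genes (0.235%) were called with at least a 2-fold change, 20 higher and 8 lower. For 1982 of the 2106 genes, females and males of both strains all moved the same way. These genes were called on the same arrays, so the call itself favours a shared direction. The count is therefore not a separate test of agreement between strains or sexes, and no share among all genes is given beside it. The arrays of the windows did not overlap for 136 genes (1.14%). Of 130 called genes chosen for description, 22 lost their call when a single array was left out, most often Htr2c (11 of the 16 arrays), Neurod6 (10), Sim1 (10), Cacna1a, Hmga2, Mia, Ncam2, Smo and Syt1 (9 each), and Btg2 and Npy (8 each). The split of calls depended on the scaling: with each array centred on its median, 954 genes were higher (8%) and 1088 lower (9.12%), so that the higher share fell from 56.6% to 46.7%, while the median change of all genes moved from 0.00172 to -0.0204. In whole tissue, fewer cells of a type and less RNA per cell cannot be told apart, and this holds for every gene below.

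Among genes with 1 direction in both sexes of both strains, the largest called rises were those of Ptgds (log2 change 2.57 ± 0.51, adjusted p 0.00213), Apoe (1.78 ± 0.22), Pla2g7 (1.65 ± 0.25), Nceh1 (1.41 ± 0.23), Aqp4 (1.34 ± 0.16), Slc6a20a (1.30 ± 0.22), Sparcl1 (1.27 ± 0.17), Slc6a13 (1.25 ± 0.29), Vgf (1.25 ± 0.29), Selenom (1.23 ± 0.16), Thy1 (1.19 ± 0.15) and Gabrg1 (1.14 ± 0.16). Apoe, Pla2g7, Aqp4 and Sparcl1 are astrocyte genes, Ptgds and Slc6a13 are strong in meninges, Vgf and Thy1 are neuronal genes, and Gabrg1 is a receptor gene of neurons and glia. The largest called falls under the same condition were those of the yolk-sac globin genes Hbb-y (-5.06 ± 0.46) and Hba-x (-3.13 ± 0.35), of Neurog2 (-1.39 ± 0.24), the imprinted gene Mest (-1.13 ± 0.16), Sgo1 (-1.08 ± 0.26), which guards chromatid cohesion in division, Ptx3 (-1.04 ± 0.16), Phf21b (-1.01 ± 0.15), Igfbpl1 (-1.01 ± 0.19), the neuronal zinc finger factor Myt1 (-0.97 ± 0.14), the homeobox gene Barhl1 (-0.87 ± 0.19), the RNA-binding protein gene Igf2bp1 (-0.87 ± 0.15) and the histone methyltransferase gene Ezh2 (-0.86 ± 0.11). All 24 had adjusted p-values of 0.00814 or less by limma. Their common direction in the 4 series was part of their choice.

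**Figure D1:**
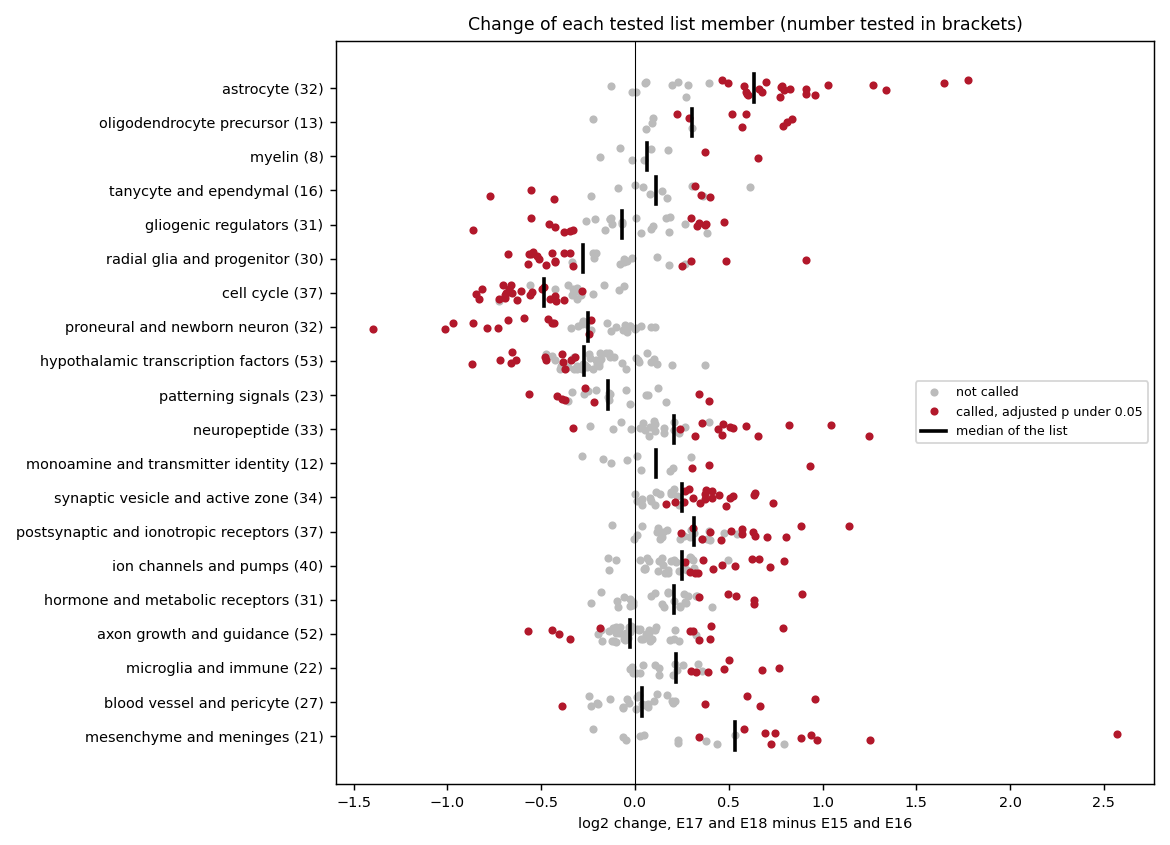
Log2 change (E17 and E18 minus E15 and E16, x axis) of each tested member of 20 gene lists (y axis, number tested in brackets). Each point is a gene, red where called by limma and grey where not, and the black bar is the median of the list. The astrocyte list has its median at 0.63 and no called member below 0, while the cell cycle list has its median at -0.48 and no member above 0.

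Astrocyte genes rose together. Of 32 tested members of a list of 36, 22 (68.8%) were called higher and 0 lower, against 9.99% and 7.66% of all genes, and 30 had a change above 0. The median change of the list was 0.63 (0.68 in C57Bl/6 alone and 0.59 in CD-1 alone), beside 0.00172 for all genes. The mean level of its tested members went up at each age, from 7.89 at E15 to 8.24, 8.60 and 8.81 at E16, E17 and E18 (mean log2). Members with larger rises, such as Apoe and Gja1, are described below. The called members not described in other paragraphs rose by 0.46 (Cst3, a secreted protease inhibitor) to 0.79 (Hepacam, a glial adhesion protein). Among them were the lipoprotein gene Clu (0.60), the bicarbonate transporter gene Slc4a4 (0.78) and the membrane protein gene Mlc1 (0.78).

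Among secreted proteins, Apoe, the lipid carrier of astrocytes, lay between 185 and 534 (median 315) in the early arrays and between 412 and 1887 (median 1199) in the late ones. Only the CD-1 E17 male, at 412, stood within the early range. The change was 3.42-fold (adjusted p 0.000105), and the level went on to 2425 ± 451 (SD, n = 4) at birth and 6102 ± 728 at P21. Sparcl1, a matrix protein that promotes synapse formation, lay between 162 and 775 (median 335) early and between 491 and 1164 (median 894) late (2.41-fold, adjusted p 0.000186). Pla2g7, which encodes a lipase that inactivates platelet-activating factor, rose from a median of 29.9 (range 5.76 to 70.9) to 141 (59.6 to 175), 3.13-fold (adjusted p 0.000316). The early arrays of Pla2g7 and Sparcl1 reached into the late range, so these changes were shifts of overlapping groups.

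Among channels and junctions, Aqp4, the water channel of astrocyte end feet, lay between 22.4 and 58.6 (median 44.5) at E15 and E16 and between 56.4 and 224 (median 144) at E17 and E18. The highest early arrays were the C57Bl/6 E16 male (58.6) and female (54.6), and the lowest late array was the CD-1 E17 male (56.4). The change was 2.53-fold (adjusted p 8.87e-05), and both tested probe sets of the gene were called higher. Gja1 (connexin 43), the main gap junction protein of astrocytes, went from a median of 398 (320.2 to 651) to 922 (470.2 to 1460.0) with a change of 1.03 ± 0.18 (adjusted p 0.000906), and Gjb6 (connexin 30) rose by 0.91 (adjusted p 0.0124). Kcnj10, the potassium channel with which glia take up potassium, lay between 39.2 and 93.4 (median 70.3) early and between 89.4 and 143 (median 119) late (0.66 ± 0.12, adjusted p 0.00142). Its windows overlapped by little: the lowest late array (89.4) was just below the highest early array (93.4).

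Among transporters and enzymes, Slc1a3, the glutamate transporter GLAST of radial glia and astrocytes, lay between 318 and 916 (median 594) early and between 771 and 1718 (median 1061) late (1.88-fold, adjusted p 0.000103). In C57Bl/6 the ranges were separate (654 to 916 against 1163 to 1718), and in CD-1 they were separate at lower levels (318 to 534 against 771 to 958). Slc1a2, the later glutamate transporter GLT-1, lay between 299 and 655 (median 548) early and between 296 and 647 (median 508) late, a change of -0.02 ± 0.10 that was not called (adjusted p 0.944), and it stood at 4217 ± 1636 at P21. Aldh1l1, a folate enzyme used as an astrocyte marker, lay between 145 and 250.1 (median 196) early and between 271 and 404 (median 375) late, with no overlap (1.71-fold, adjusted p 0.000105). Aldoc, the brain form of aldolase, did the same, between 329.6 and 606 (median 493) against between 732 and 939 (median 854) (1.77-fold, adjusted p 0.000216). Slc6a11, a GABA transporter of astrocytes, rose from a median of 122 to 211 (0.94 ± 0.22, adjusted p 0.00623). Gfap, the intermediate filament of mature astrocytes, lay between 27.8 and 63.7 (median 43.9) early and between 29.7 and 107 (median 61.0) late and was not called (0.40 ± 0.16, adjusted p 0.102), while its level at P21 was 779.6 ± 192. The C57Bl/6 E18 arrays read 89.5 and 107, and the late CD-1 arrays 29.7 to 61.1. A dim, untested probe set of Gfap read 2.01 to 4.43 early. Late it read 36.1 (C57Bl/6 E17 female), 48.3 (C57Bl/6 E18 male), 27.5 and 26.8 (CD-1 E18), and 1.77 to 4.64 in the other arrays. Apoe, Aqp4, Slc1a3 and Aldh1l1 were thus called in this interval, whereas Slc1a2 and Gfap were not.

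**Figure D2:**
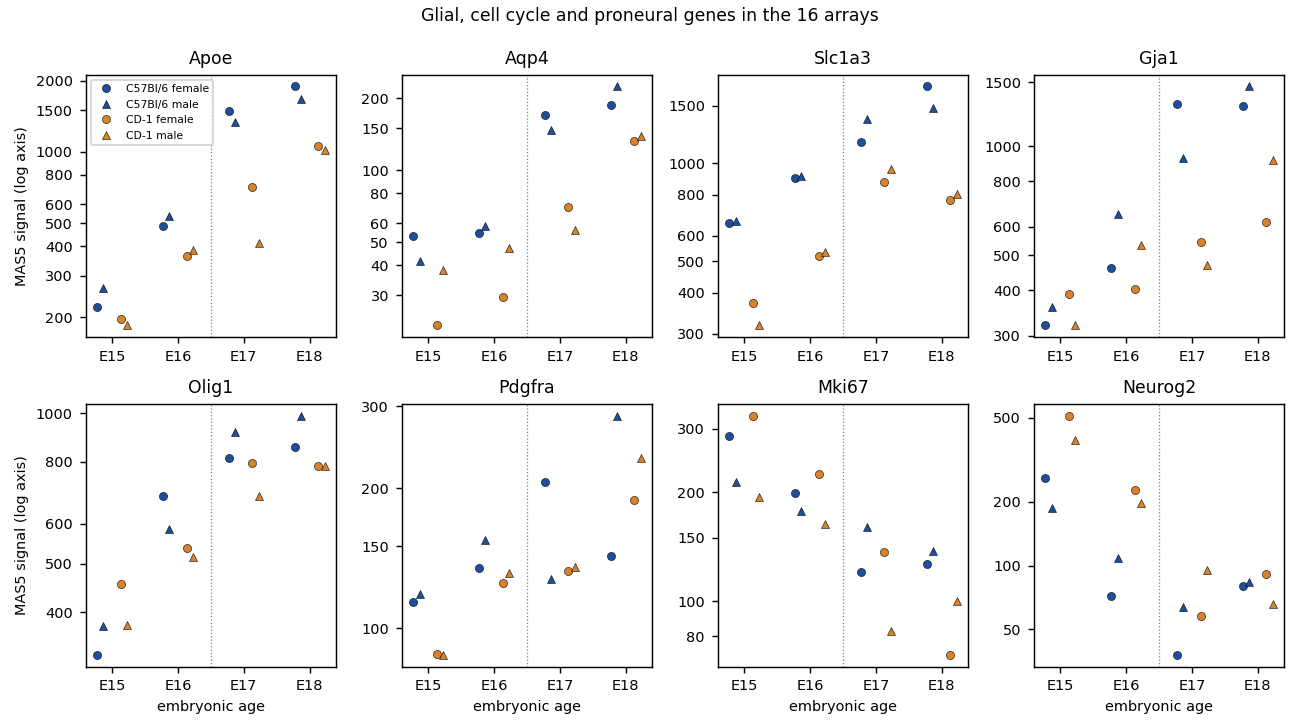
MAS5 signal (log axis) of 8 genes at E15 to E18 (x axis), with 1 point per array, circles for females and triangles for males, C57Bl/6 in blue and CD-1 in orange. The dotted line parts the windows. Apoe, Aqp4, Slc1a3, Gja1, Olig1 and Pdgfra are higher and Mki67 and Neurog2 lower on the right, with the CD-1 arrays of Slc1a3 below those of C57Bl/6 at every age.

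The regulators of the turn to glia did not move as a group. Of 31 tested, 6 (19.4%) were called higher and 7 (22.6%) lower, beside 9.99% and 7.66% of all genes, with a median of -0.07. The members called lower were Ezh2, Lhx2, the Notch pathway genes Rbpj, Dll1, Notch1 and Hes1, and Nfib, and those called higher were Id1, Id3, the cytokine signalling genes Jak1, Lifr and Il6st, and Etv5. Ezh2, the enzyme that places repressive methyl marks on histone H3, lay between 428 and 1041 (median 706) early and between 297 and 574 (median 338) late (-0.86 ± 0.11, adjusted p 0.00012), with overlap. Rbpj, the DNA-binding partner of Notch, went from a median of 627 to 460.1 (-0.46 ± 0.12, adjusted p 0.0143), and Id1, an inhibitor of proneural factors, from 185 to 262 (0.48 ± 0.13, adjusted p 0.0187). Of the nuclear factor I genes, Nfib fell by 0.33 on the log2 scale (adjusted p 0.0218), and Nfia (-0.13 ± 0.11, adjusted p 0.439) and Nfix (0.08 ± 0.10, adjusted p 0.61) were not called. Only 1 of the 7 tested probe sets of Nfib was called, so its fall rests on that probe set. Sox9 (-0.16 ± 0.12, adjusted p 0.423) and Hes5 (0.27 ± 0.13, adjusted p 0.179) were not called either. All 5 of these factors were measured well above the array median, with early medians of 418 (Nfib), 455 (Nfia), 637 (Nfix), 167 (Sox9) and 166 (Hes5).

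Genes of oligodendrocyte precursors rose in part, and those of myelin largely gave no call. Of 13 tested precursor genes, 8 (61.5%) were called higher and 0 lower (median 0.30). Of 8 tested myelin genes 2 (25%) were higher and 0 lower (median 0.07), beside 9.99% and 7.66% of all genes. Of the precursor genes 4 were called higher in C57Bl/6 alone, 3 in CD-1 alone and 3 with collagen level as a covariate. Olig1, a transcription factor of the lineage, lay between 329 and 682 (median 485) early and between 681 and 988 (median 804) late, so that a single early array, the C57Bl/6 E16 female, touched the late range. It rose 1.73-fold (adjusted p 0.000321). Its neighbour in the genome and in function, Olig2, lay between 158 and 250.3 (median 191) early and between 163 and 248 (median 208) late and was not called (0.09 ± 0.10, adjusted p 0.563). Pdgfra, the growth factor receptor of the precursors, lay between 87.9 and 155 (median 122) early and between 127 and 286 (median 166) late (0.51 ± 0.15, adjusted p 0.0195), with its highest value, 286, in the C57Bl/6 E18 male. Gpr17, a receptor of cells on the way to oligodendrocytes, rose from a median of 47.9 to 97.2 (0.84 ± 0.17, adjusted p 0.00219), the tetraspan-like gene Lhfpl3 from 161 to 291 (0.81 ± 0.12, adjusted p 0.000225), and the matrix proteoglycan gene Bcan, which astrocytes also make, from 1203 to 1640.1 (0.59 ± 0.14, adjusted p 0.00754).

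Cnp, an enzyme gene that is active in the lineage before myelin forms, lay between 219.6 and 319 (median 258) early and between 359.8 and 503 (median 425) late, with no overlap (1.57-fold, adjusted p 0.000106). All 3 of its tested probe sets were called higher. The tetraspanin gene Tspan2 rose by 0.38 (adjusted p 0.00281). Mbp, which encodes a main protein of compact myelin, lay between 146 and 229.9 (median 204) early and between 156 and 261 (median 233) late (0.18 ± 0.10, adjusted p 0.267). The probe set that stood for Mbp read 261 ± 14.5 at P21, against 5208 ± 982 for Cnp, and none of the 4 tested probe sets of Mbp was called.

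Genes of radial glia split into a falling and a rising set. Of 30 tested, 14 were called lower and 4 higher, with a median of -0.28. The filament genes of progenitors fell: Nes lay between 346 and 632 (median 408) early and between 203 and 306 (median 278) late, without overlap (-0.68 ± 0.12, adjusted p 0.00103), and Vim lay between 1529.7 and 4541 (median 2581) early and between 1607 and 2618 (median 1838) late (-0.51 ± 0.12, adjusted p 0.00669). The change of Vim was -0.28 in C57Bl/6 alone and -0.74 in CD-1 alone. Ccnd2, a cyclin of dividing progenitors (-0.57 ± 0.15, adjusted p 0.0115), and Prom1, a membrane protein of their apical surface (-0.57 ± 0.13, adjusted p 0.00618), were also lower. The members called higher were Slc1a3, Tnc, Id3 and Fabp7, all of which young astrocytes express too. Fabp7, a fatty acid binding protein, was bright throughout, between 4089 and 5209 (median 4649.6) early and between 5134 and 6006 (median 5508) late, and moved little (0.25 ± 0.05, adjusted p 0.00163).

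The ventricular lining gave no common direction. The list had 16 tested genes of tanycytes, the hypothalamic radial glia that persist in the adult, and of ciliated ependymal cells. Of these 3 (18.8%) were called higher and 3 (18.8%) lower, beside 9.99% and 7.66% of all genes. Dlk1, an imprinted Notch-like ligand gene, lay between 1692 and 5165 (median 2482) early and between 893 and 2766 (median 1500.0) late (-0.77 ± 0.14, adjusted p 0.00144). The proteoglycan gene Vcan was lower (-0.43 ± 0.08, adjusted p 0.00157), and Mia was higher (0.40 ± 0.13, adjusted p 0.0364).

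Cell division genes fell as a group. Of 37 tested members, 22 (59.5%) were called lower and 0 higher, 0 had a change above 0, and the median was -0.48. Mki67, a marker of cycling cells, lay between 163 and 326 (median 207) at E15 and E16 and between 71.3 and 161 (median 124) at E17 and E18, with a narrow gap between the windows (1.80-fold lower late, adjusted p 0.000733). Cdc20, which activates the ligase that starts chromosome separation, lay between 167 and 490.5 (median 242) early and between 111 and 172 (median 135) late (1.78-fold, adjusted p 0.000391), and Ube2c, the ubiquitin-conjugating partner of that ligase, between 104 and 599.7 (median 168) and between 78.2 and 146 (median 116) (1.76-fold, adjusted p 0.00402). For both, the lower early arrays overlapped the late range. Uhrf1, which helps to copy DNA methylation at replication, lay between 65.0 and 179.5 (median 98.6) early and between 43.8 and 64.4 (median 53.1) late, barely apart (-0.72 ± 0.13, adjusted p 0.00131). The other called members changed by -0.70 (Cdca8, of the complex that checks chromosome attachment) to -0.28 (Mcm4). They included 4 genes of the replicative helicase, Mcm2 (-0.69), Mcm7 (-0.69), Mcm5 (-0.48) and Mcm4, the mitotic kinase gene Plk1 (-0.69) and the topoisomerase gene Top2a (-0.63).

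The strains started at different levels. The mean log2 level of the tested cell cycle genes in CD-1 was 7.997, 7.49, 7.07 and 6.88 from E15 to E18. In C57Bl/6 it was 7.34, 7.12, 7.01 and 7.04. With CD-1 alone 16 members were called lower and with C57Bl/6 alone 4, with medians of -0.76 and -0.18. The test of the difference between strains called no gene (adjusted p 0.383 for Cdc20 and 0.685 for Mki67, limma interaction), so a difference between the strains was not shown.

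The promoters of 3 members that fell most are printed to show the CCAAT box, which most promoters of the cell cycle list held, and TTTGAA, the core of the element named CHR after cell cycle genes, which a minority held. The sequences are RefSeq promoter sequences (GRCm38.p6), read 5′ to 3′ on the strand of the gene and ending at its annotated start, of 200 bases for Mki67 (chr7:135716380-135716579, minus strand), 100 for Cdc20 (chr4:118437344-118437443, minus strand) and 240 for Ube2c (chr2:164769689-164769928, plus strand). Capitals mark every CCAAT box, whose reverse complement reads ATTGG on the printed strand, and every TTTGAA element, whose reverse complement reads TTCAAA.
Mki67: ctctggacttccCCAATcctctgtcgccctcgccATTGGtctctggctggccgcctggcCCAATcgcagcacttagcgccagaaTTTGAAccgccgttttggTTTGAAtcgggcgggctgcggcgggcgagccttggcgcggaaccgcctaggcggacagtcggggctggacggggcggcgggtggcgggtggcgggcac
Cdc20: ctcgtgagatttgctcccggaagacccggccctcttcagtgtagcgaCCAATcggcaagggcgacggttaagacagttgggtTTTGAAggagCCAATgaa
Ube2c: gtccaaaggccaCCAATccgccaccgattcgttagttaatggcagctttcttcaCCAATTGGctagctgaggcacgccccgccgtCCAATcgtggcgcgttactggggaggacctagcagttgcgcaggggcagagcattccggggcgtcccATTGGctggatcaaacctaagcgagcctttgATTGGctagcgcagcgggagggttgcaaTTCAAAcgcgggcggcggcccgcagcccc
The stretches hold CCAAT on either strand 3 times in Mki67, 2 times in Cdc20 and 6 times in Ube2c, where a forward and a reverse copy overlap by shared bases. They hold TTTGAA 2 times, 1 time and 1 time. Within the 250 bases before the start, CCAAT on either strand occurred in 16 of 19 called cell cycle genes with a promoter entry (84.2%), in 9 of the 12 tested but not called (75.0%) and in 34.5% of 27025 promoters of all genes. TTTGAA occurred in 7 of the 19 (36.8%), in 2 of the 12 (16.7%) and in 16.3% of all. Of 18 called astrocyte genes with an entry, 7 (38.9%) held CCAAT and 0 held TTTGAA. Of 15 called vesicle genes with an entry, 3 (20.0%) held CCAAT and 0 held TTTGAA, whereas 6 of 13 uncalled ones (46.2%) held TTTGAA. A match is a description of these letters and not a shown binding site, and called and uncalled cell cycle genes both held CCAAT often.

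Genes that commit progenitors to neurons fell in part. Of 32 tested, 13 were called lower and 0 higher (median -0.25). Neurog2, a proneural transcription factor, lay between 71.5 and 511 (median 213) early and between 37.9 and 94.9 (median 73.1) late (2.63-fold lower, adjusted p 0.000857). The early arrays ran from 71.5 in the C57Bl/6 E16 female to 511 in the CD-1 E15 female, and of the early arrays only that of the C57Bl/6 E16 female reached into the late range. Igfbpl1 lay between 162 and 1027 (median 272) early and between 109 and 269 (median 167) late (-1.01 ± 0.19, adjusted p 0.00143). Myt1, a zinc finger factor of newborn neurons, lay between 159 and 449 (median 246) and between 89.8 and 203 (median 119) (-0.97 ± 0.14, adjusted p 0.000303). Btg2, a brake on division in neuron-producing progenitors, changed by -0.86 ± 0.28 (adjusted p 0.0384), downward in 3 of 4 series, with -0.24 in C57Bl/6 alone. Dcx, the microtubule protein of migrating neurons, lay between 2028 and 5457 (median 4809) early and between 1951 and 5849 (median 4368) late (-0.10 ± 0.18, adjusted p 0.758), and Stmn1, Stmn2, Tubb3 and Tubb2b had changes of -0.04, 0.11, 0.03 and -0.03, none of them called.

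In the fit of both strains, the transcription factors that mark hypothalamic territories moved down or gave no call. Of 53 tested, 12 were called lower and 0 higher, with a median of -0.27 and 9 changes above 0. With C57Bl/6 alone 7 were called lower and 2 higher (median -0.28), and with CD-1 alone 0 lower and 0 higher (median -0.27). With collagen level as a covariate 1 of the 53 was called lower and the median was -0.15. Barhl1, a factor of the caudal hypothalamus, lay between 58.6 and 233 (median 104) early and between 19.2 and 104 (median 49.2) late (-0.87 ± 0.19, adjusted p 0.00393). Dlx2, a factor of GABA neuron precursors, lay between 260.5 and 501 (median 304) and between 147 and 334 (median 176) (-0.72 ± 0.12, adjusted p 0.000918), and the progenitor factors Gsx1 (-0.66 ± 0.15, adjusted p 0.00648) and Dbx1 (-0.65 ± 0.17, adjusted p 0.011) were lower too. Otp and Sim1 specify the neuroendocrine neurons of the paraventricular and supraoptic nuclei. Otp lay between 1239 and 2490.3 (median 1528) early and between 949 and 1824 (median 1177) late (-0.48 ± 0.15, adjusted p 0.0294), and Sim1 between 149 and 525.9 (median 313) and between 129.8 and 231 (median 214) (-0.63 ± 0.22, adjusted p 0.0474). The call of Sim1 was close to the threshold, and neither of its 2 probe sets was called in the fit of probe sets. Nkx2-1, which defines the ventral hypothalamus, was not called (0.06 ± 0.10, adjusted p 0.731), nor was Nr5a1, the factor of the ventromedial nucleus (-0.44 ± 0.18, adjusted p 0.107).

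Among 23 tested patterning genes 6 (26.1%) were called lower and 2 (8.7%) higher (median -0.14), beside 7.66% and 9.99% of all genes. Shh, the ventral morphogen, lay between 355 and 794 (median 570.0) early and between 248 and 550.2 (median 368) late (-0.56 ± 0.10, adjusted p 0.000927), and its signal transducer Smo (-0.41 ± 0.14, adjusted p 0.0413) and the Wnt effector Lef1 (-0.39 ± 0.10, adjusted p 0.01) were lower too. Neither probe set of Smo was called in the fit of probe sets. Spry2, an inhibitor and target of growth factor signalling, was higher (0.39 ± 0.12, adjusted p 0.0276).

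Neuropeptide and secretory granule genes rose. Of 33 tested, 13 (39.4%) were called higher and 1 (3.03%) lower, beside 9.99% and 7.66% of all genes, with a median of 0.21. The median was 0.12 in C57Bl/6 alone, with 1 member called higher, and 0.35 in CD-1 alone, with 6. Avp, the gene of vasopressin, lay between 259 and 898 (median 431) early and between 579.8 and 1648 (median 1023) late (2.07-fold, adjusted p 0.00305). By age it stood at 340.2 ± 54.6 (SD, n = 4) at E15, 705 ± 171 at E16, 1118 ± 397 at E17 and 1008 ± 340.1 at E18, so that the step was largest from E15 to E16 (0.999 ± 0.22, adjusted p 0.0194). Oxt, the gene of oxytocin and the neighbour of Avp, lay between 412 and 560.5 (median 453) early and between 430.2 and 537 (median 501) late (0.05 ± 0.07, adjusted p 0.69) and reached 5255 ± 964 at P21. Vgf, a granule protein induced by growth factors, went from 49.9 ± 22.1 at E15 to 156 ± 78.9, 174 ± 24.6 and 279.9 ± 34.4 at E16, E17 and E18 (1.25 ± 0.29, adjusted p 0.00614), with a low of 18.2 in the CD-1 E15 female. Grp, the gene of gastrin-releasing peptide, lay between 6.19 and 62.1 (median 31.8) early and between 40.8 and 85.6 (median 61.3) late (0.82 ± 0.23, adjusted p 0.0193), and Penk, the enkephalin precursor gene, between 63.7 and 137 (median 116) and between 129 and 229 (median 177) (0.65 ± 0.11, adjusted p 0.000967). The other called members rose by 0.24 (Chgb, a granule protein) to 0.59 (Scg2, another granule protein), and Nxph4, a secreted ligand of neurexins, fell (-0.33).

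Among the peptides of feeding and stress circuits, Npy lay between 183 and 389 (median 228) early and between 283 and 445 (median 363) late (0.47 ± 0.15, adjusted p 0.0311), and Gal, the galanin gene, between 93.4 and 199.9 (median 170.0) and between 196 and 268 (median 205) (0.44 ± 0.12, adjusted p 0.0158). The other key peptide genes were not called: Pomc (-0.24 ± 0.13), Sst (0.40 ± 0.19), Pmch (0.24 ± 0.11), Hcrt (0.21 ± 0.12), Crh (-0.02 ± 0.26) and Trh (0.11 ± 0.13), with adjusted p-values of 0.152 (Pmch) to 0.968 (Crh). Crh stood at 156 ± 71.2 at E16 and 85.1 ± 11.2 at E18. Of the key genes, Esr1, Hbb-bh1 and Lin28b did not pass the filter on low signal, and Agrp and Gnrh1 were not analysed here.

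For transmitters, the vesicular glutamate transporter gene Slc17a6 rose (0.30 ± 0.07, adjusted p 0.00482), from a median of 808 to 1029. Of the GABA genes, Gad1 (0.30 ± 0.11, adjusted p 0.0735) and the vesicular transporter Slc32a1 (0.20 ± 0.12, adjusted p 0.263) were not called between the windows, although from E15 to E16 they rose by 0.57 ± 0.09 (adjusted p 0.00377) and 0.55 ± 0.11 (adjusted p 0.0176). Th, the dopamine synthesis enzyme gene, was not called (-0.17 ± 0.11, adjusted p 0.335). Maoa, which breaks down monoamines, lay between 262 and 382 (median 335) early and between 387 and 501 (median 443) late, without overlap (0.40 ± 0.07, adjusted p 0.000906).

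Synaptic genes rose in number but by small amounts. Of 34 tested vesicle and active zone genes, 19 (55.9%) were called higher and 0 lower, with a median of 0.25. Syn2, which tethers vesicles, lay between 167 and 458 (median 277) early and between 359 and 632 (median 468) late (1.66-fold, adjusted p 0.001), and all 4 of its tested probe sets were called higher. Snap25, a core protein of vesicle fusion, lay between 539.7 and 1188 (median 959.6) early and between 1173 and 1405 (median 1264) late (1.44-fold, adjusted p 0.00376). The lowest early arrays of Snap25 were those of CD-1 at E15, at 539.7 and 684 with the C57Bl/6 arrays of that age at 1058 and 883. Napb, a fusion cofactor (0.64 ± 0.13, adjusted p 0.00203), and Sncb, beta-synuclein (0.63 ± 0.09, adjusted p 0.000266), were higher. Syt1, the calcium sensor of release, moved by 0.17 ± 0.05 (adjusted p 0.0347).

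Of 37 tested receptor and postsynaptic genes, 14 were called higher and 0 lower (median 0.31). Gabrg1, the gamma-1 subunit of the GABA-A receptor, lay between 101 and 313 (median 208) early and between 389 and 585 (median 452) late, without overlap (2.21-fold, adjusted p 0.000216), and both of its probe sets were called higher. Gabrb1, a further subunit of this receptor, rose by 0.70 ± 0.14 (adjusted p 0.00224). The metabotropic glutamate receptor gene Grm3, strong in astrocytes, lay between 143 and 343 (median 242) and between 351 and 526.5 (median 444), also without overlap (0.89 ± 0.15, adjusted p 0.000857), and Grm5 rose by 0.80 ± 0.20 (adjusted p 0.0103). Camk2a, a kinase of mature synapses, was not called (median 126 early and 141 late, adjusted p 0.992).

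Of 40 tested channels and pumps, 12 were called higher and 0 lower (median 0.25). Slc4a10, a bicarbonate transporter of neurons, lay between 212 and 436 (median 342) early and between 519 and 633 (median 550.5) late, without overlap (1.74-fold, adjusted p 0.000327). The sodium channel gene Scn2a (0.62 ± 0.12, adjusted p 0.00181) and the calcium channel gene Cacna1a (0.72 ± 0.22, adjusted p 0.0317) were higher. Slc12a5, the chloride exporter KCC2 that makes GABA inhibitory, lay between 1351 and 2781 (median 1990.3) early and between 2177 and 2802 (median 2413) late (0.34 ± 0.09, adjusted p 0.012). The importer Slc12a2 was not called (-0.10 ± 0.07, adjusted p 0.37).

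Of 31 tested hormone and metabolic receptors, 6 (19.4%) were called higher and 0 lower (median 0.21), beside 9.99% and 7.66% of all genes. Trhr, the receptor of thyrotropin-releasing hormone, lay between 17.7 and 65.8 (median 42.4) early and between 69.3 and 112 (median 93.6) late, without overlap (1.85-fold, adjusted p 0.000481). Nr3c1, the glucocorticoid receptor, lay between 39.4 and 98.5 (median 77.1) and between 104 and 148 (median 111), also without overlap (0.63 ± 0.12, adjusted p 0.00181). The neuropeptide Y receptor gene Npy1r (0.63 ± 0.17, adjusted p 0.0125) and the serotonin receptor gene Htr2c (0.54 ± 0.18, adjusted p 0.0437) were higher. The leptin receptor gene Lepr (-0.09 ± 0.14, adjusted p 0.722) and the thyroid hormone receptor gene Thra (-0.06 ± 0.07, adjusted p 0.626) were not called.

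Axon genes were called about as often as all genes. Of 52 tested, 6 (11.5%) were called higher and 5 (9.62%) lower, beside 9.99% and 7.66% of all genes, with a median of -0.03. The guidance cue Ntn1 (-0.44 ± 0.09, adjusted p 0.00257) and its receptor Dcc (-0.57 ± 0.11, adjusted p 0.0015) fell together, Dcc lying between 512 and 761 (median 610.1) early and between 299.6 and 590.4 (median 418) late. The adhesion genes Cntn1 (0.79 ± 0.15, adjusted p 0.0019) and Ncam2 (0.41 ± 0.13, adjusted p 0.0392) rose, Cntn1 lying between 491 and 1381 (median 918) early and between 1092 and 2195 (median 1612) late. Both Ntn1 and Dcc had overlapping windows.

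**Figure D3:**
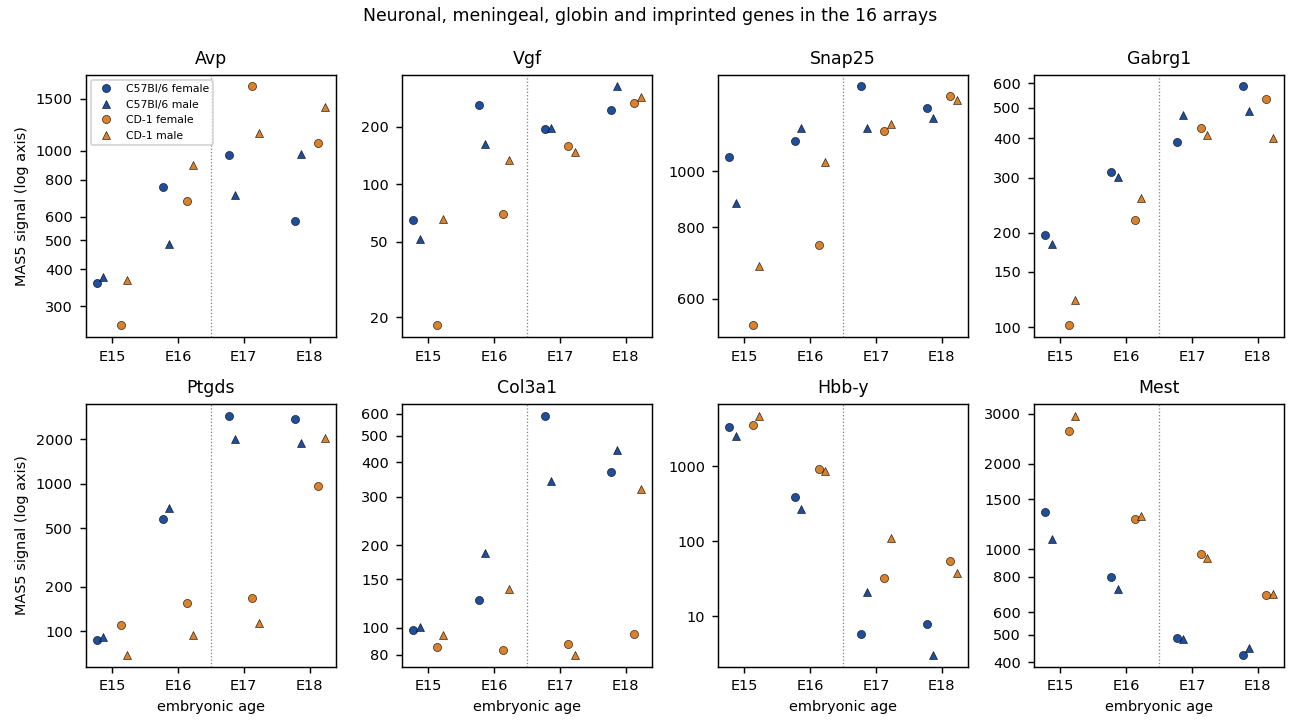
MAS5 signal (log axis) of 8 genes in the 16 arrays at E15 to E18, with symbols as in the plot of glial and progenitor genes. Avp, Vgf, Snap25 and Gabrg1 climb most between E15 and E16, Ptgds is high in C57Bl/6 from E17 on and in CD-1 at E18, Col3a1 in C57Bl/6 from E17 on and in the CD-1 E18 male, and Hbb-y and Mest fall in both strains, Mest from a higher start in CD-1.

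Energy and cholesterol genes rose in part. Of 33 tested energy genes 11 were called higher and 1 lower (median 0.10). Besides Aldoc, the neuronal enolase gene Eno2 lay between 219 and 463 (median 294) early and between 451 and 640.4 (median 509) late (0.69 ± 0.14, adjusted p 0.00228), and the neuronal glucose transporter gene Slc2a3 between 479 and 1042 (median 707) and between 736 and 1199 (median 1100.3) (0.58 ± 0.11, adjusted p 0.00201). The phosphofructokinase gene Pfkp rose by 0.86 ± 0.22 (adjusted p 0.0121), with an early range of 156 to 1632 that spanned the late one (527 to 1430.2). Of 18 cholesterol synthesis genes 7 were called higher and 0 lower (median 0.13), the largest being Fdps (0.35 ± 0.09, adjusted p 0.0134), in 3 of 4 series, Idi1 (0.32 ± 0.08), Insig1 (0.32 ± 0.09) and Mvk (0.29 ± 0.08).

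Regulators of early growth fell. Of 19 tested, 8 were called lower and 1 higher (median -0.13). Igf2bp1, an RNA-binding protein of fetal tissues, lay between 77.4 and 147 (median 111) early and between 30.3 and 75.2 (median 52.7) late, without overlap (1.83-fold lower, adjusted p 0.000798), and all 3 of its probe sets were called lower. Tmpo (-0.49 ± 0.08, adjusted p 0.000574), Mycl (-0.46 ± 0.10, adjusted p 0.00502) and Hmga2, a chromatin protein of fetal progenitors (-0.44 ± 0.14, adjusted p 0.0354), were also lower. The change of Hmga2 was -0.80 in CD-1 alone and -0.08 in C57Bl/6 alone.

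Imprinted genes are expressed from the allele of a single parent. Of 31 tested, 5 (16.1%) were called higher and 4 (12.9%) lower, beside 9.99% and 7.66% of all genes, with a median of -0.04. Mest, a paternally expressed gene, lay between 729 and 2958 (median 1298) early and between 426 and 965 (median 589) late (2.18-fold lower, adjusted p 0.000246). It fell at each age in both strains, from 1224 to 438 in C57Bl/6 and from 2789.8 to 693 in CD-1 (means of 2 arrays at E15 and E18), and within each strain the windows did not overlap. Rasgrf1, an exchange factor of neurons, rose by 0.71 ± 0.15 (adjusted p 0.00279). Igf2, the fetal growth factor gene, rose by 0.75 ± 0.22 (adjusted p 0.0238), with 1.23 in C57Bl/6 alone and 0.26 in CD-1 alone.

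Of 15 clock genes 2 (13.3%) were called higher and 1 (6.67%) lower, near the 9.99% and 7.66% of all genes: the repressor Nr1d2 (0.41 ± 0.09, adjusted p 0.00415) and Hlf (0.28 ± 0.09, adjusted p 0.0288) rose and the kinase gene Csnk1e (-0.22 ± 0.06, adjusted p 0.0212) fell. Immediate early genes respond fast to activity and to handling. Of 13 tested, 2 (15.4%) were called higher and 4 (30.8%) lower, beside 9.99% and 7.66% of all genes. Fos was among those that rose (0.69 ± 0.19, adjusted p 0.0195), and Ier2 (-0.47 ± 0.11, adjusted p 0.00607) and Dusp1 (-0.37 ± 0.10, adjusted p 0.0119) were among those that fell. Of 20 stress genes 7 rose and 0 fell, led by the metallothionein genes Mt2 (0.88 ± 0.19, adjusted p 0.00385) and Mt1 (0.72 ± 0.12, adjusted p 0.000533), which astrocytes express, the heat shock gene Hspa1b (0.70 ± 0.16, adjusted p 0.00706) and the cell cycle inhibitor gene Cdkn1a (0.63 ± 0.11, adjusted p 0.000948). Cdkn1a lay between 128 and 211 (median 186) early and between 215 and 372 (median 280.1) late, without overlap. The part of handling time in these values was not tested.

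Red blood cell genes gave the largest change of all, in 2 genes. Hbb-y, an embryonic beta-globin, lay between 266 and 4710.4 (median 1726) early and between 3.07 and 112 (median 26.6) late (33.5-fold lower, adjusted p 9.82e-06), and all 3 of its probe sets were called lower. It went from 3535 ± 896 (SD, n = 4) at E15 to 606 ± 327, 42.6 ± 47.2 and 25.7 ± 24.4 at E16, E17 and E18. Hba-x, the embryonic alpha-globin, lay between 94.2 and 852 (median 280.1) and between 3.13 and 56.8 (median 17.9) (8.73-fold lower, adjusted p 8.87e-05). The other 10 of 12 tested red cell genes were not called, among them the adult globins Hba-a2 (0.05 ± 0.11) and Hbb-b2 (0.41 ± 0.33), which probe sets may not separate from near-identical copies, and the haem synthesis gene Alas2 (0.09 ± 0.28).

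Microglial and immune genes rose in 7 of 22 tested members and fell in 0 (median 0.22). The complement gene C1qa lay between 12.2 and 106 (median 72.9) early and between 74.1 and 144 (median 121) late (0.77 ± 0.20, adjusted p 0.0123), and Mrc1, a receptor of macrophages at brain borders, between 41.4 and 97.5 (median 53.9) and between 48.4 and 176 (median 132) (0.68 ± 0.17, adjusted p 0.00906). The beta-2 microglobulin gene B2m (0.48 ± 0.14, adjusted p 0.0259) and the interferon-induced gene Ifitm3 (0.50 ± 0.13, adjusted p 0.0144) were higher too. The changes of C1qa and Mrc1 were 1.23 and 1.03 in C57Bl/6 alone and 0.30 and 0.33 in CD-1 alone. The microglial genes Cx3cr1 (-0.03) and P2ry12 (0.03) were not called. Of 27 vessel genes 4 (14.8%) were called higher and 1 (3.7%) lower (median 0.04), 18.5% in all beside 17.7% of all genes. Slco1c1, a thyroid hormone transporter of the blood-brain barrier that astrocytes also express, lay between 86.1 and 192 (median 118) early and between 199 and 300.0 (median 264) late, without overlap (1.95-fold, adjusted p 0.000195). The barrier export pump gene Abcb1a (0.60 ± 0.12, adjusted p 0.00288) and Vtn, a matrix gene of pericytes (0.67 ± 0.14, adjusted p 0.00296), rose, and the endothelial genes Cldn5 (0.05), Pecam1 (-0.13) and Kdr (-0.06) were not called.

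Genes of mesenchyme and meninges, the membranes around the brain, rose between the windows. Of 21 tested of 34, 10 were called higher and 0 lower, with a median of 0.53. The median was 0.87 in C57Bl/6 alone, with 13 members called higher, and 0.18 in CD-1 alone, with 0, while the interaction of strain and window called none of them. The summed signal of the list ran from 2257 to 3911 in the early arrays and from 2177 to 8462 in the late ones. Ptgds, a prostaglandin synthase, was at 87.1 and 91.9 in C57Bl/6 at E15, at 577 and 687 at E16, and at 1878 to 2887 at E17 and E18. In CD-1 it lay between 69.4 and 155 early, at 169 and 114 at E17, and at 968 and 2035 at E18. Col3a1, a fibroblast collagen, was at 341 to 591 in the late C57Bl/6 arrays and at 319 in the CD-1 E18 male, against 80.0, 87.4 and 94.9 in the other 3 late CD-1 arrays. Col1a1, the main collagen of fibroblasts, rose by 0.94 ± 0.28 (adjusted p 0.0252).

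The mean log2 level of 7 collagen genes was 6.79 to 7.37 in early and 7.63 to 8.07 in late C57Bl/6 arrays, and 6.87 to 6.96 and 6.76 to 7.59 in CD-1. It moved with the windows in C57Bl/6, and so the fit was repeated with this level as a covariate, an alternative added after the data were seen. It left 396 genes higher (3.32%) and 287 lower (2.41%), and 622 of the 2106 calls were made again in the same direction. Ptgds (1.28, adjusted p 0.108), Slc6a13 (0.39, adjusted p 0.265) and Igf2 (0.04, adjusted p 0.88) were then not called. Apoe (1.32, adjusted p 0.00881), Aqp4 (1.02, adjusted p 0.00772), Slc1a3 (0.94, adjusted p 0.00484), Aldh1l1 (0.63, adjusted p 0.00873), Olig1 (0.67, adjusted p 0.0192), Mki67 (-0.91, adjusted p 0.0138) and Neurog2 (-1.44, adjusted p 0.0176) were called again. Of the lists, 16 astrocyte genes were called higher (median 0.49), 15 cell cycle genes lower (-0.57), 10 vesicle genes higher (0.31) and 5 peptide genes higher (0.29). Radial glia genes went from 14 to 6 lower, gliogenic regulators from 6 to 1 higher and from 7 to 3 lower, and proneural genes from 13 to 8 lower. Postsynaptic genes went from 14 to 7 higher, ion channels from 12 to 6, hormone receptors from 6 to 3 and energy genes from 11 to 5, and growth regulators from 8 to 5 lower. No microglial gene (median 0.12) and no cholesterol gene (0.13) was called higher. The 7 collagen genes belong to the mesenchyme list, so that its values in this fit say nothing of that list.

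Markers of neighbouring tissue were read from the same fit. Of 13 cortical genes 5 (38.5%) were called lower and 1 (7.69%) higher, beside 7.66% and 9.99% of all genes. Their summed signal was 2169 to 4362 early and 2131 to 2959.7 late. In CD-1 it was 2893 to 4362 early and 2415 to 2959.7 late, and in C57Bl/6 2169 to 2459 and 2131 to 2269. Neurod6, a factor of cortical projection neurons, lay between 62.4 and 251 (median 134) early and between 54.5 and 101 (median 74.1) late (-0.58 ± 0.19, adjusted p 0.0372), and Eomes, of cortical intermediate progenitors, between 103 and 422 (median 149) and between 85.9 and 139.6 (median 106) (-0.59 ± 0.15, adjusted p 0.00945). The progenitor factor genes Lhx2 (-0.55 ± 0.16, adjusted p 0.0237) and Nr2e1 (-0.54 ± 0.16, adjusted p 0.0209), which the hypothalamus also expresses, were the next largest falls of that list. For the striatum 2 of 12 genes (16.7%) were higher (Penk and Gng7, 0.51) and 1 (8.33%) lower (Isl1, -0.32). For thalamus and midbrain 0 of 15 were higher and 2 (13.3%) lower (Lhx2 and Lef1). The shares of the striatum and of thalamus and midbrain rest on few genes and lie near those of all genes. Of 12 genes of muscle, cartilage, bone and epithelium 2 (16.7%) were higher and 1 (8.33%) lower. The muscle actin gene Acta1 (0.69 ± 0.13, adjusted p 0.00142) and Perp (0.45 ± 0.13, adjusted p 0.0233) rose. The cartilage collagen gene Col2a1 fell (-0.73 ± 0.13, adjusted p 0.001). Of 18 listed choroid plexus genes 6 passed the filter and 0 were called higher and 0 lower, with a summed signal of 355 to 2597 early and 418 to 1683 late. Ttr, the main product of the choroid plexus, was at 2063 and 2197 in the CD-1 E16 arrays, 1313 in the C57Bl/6 E18 male and 615 in the array labelled C57Bl/6 E16 male, against 24.3 to 235 in the other 12 arrays. Of 19 pituitary genes 4 passed, and the granule gene Chgb, which neurons express too, was called higher. Of 8 tested sex-linked genes Kdm5c was called, lower by -0.31 ± 0.09 (adjusted p 0.0273). The part of neighbouring tissue in the results was not tested.

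The changes were then followed from age to age. From E15 to E16, 318 genes (2.67%) passed, 222 upward (1.86%) and 96 downward (0.805%). Between the windows 207 of them were called in the same direction as well. From E16 to E17, 11 genes (0.0922%) were called, 7 higher (0.0587%) and 4 lower (0.0335%), and from E17 to E18, 1 gene (0.00838%), H3f3b (-0.85 ± 0.12, adjusted p 0.0219). At an unadjusted p under 0.05 the steps had 2207, 1271 and 555 genes. The test of the difference between the E15 to E16 and the E17 to E18 step called 0 genes by limma, with 836 at an unadjusted p under 0.05, so the steps were not shown to differ for any single gene. The genes called from E16 to E17 were the astrocyte genes Aqp4 (0.91 ± 0.17), Apoe (0.98 ± 0.18), Slc1a3 (0.62 ± 0.10) and Sparcl1 (0.67 ± 0.12), with Selenom (0.71 ± 0.13), Arap2 (0.66 ± 0.10) and Gng4 (0.51 ± 0.09) higher, and Hbb-y (-3.55 ± 0.27), Hba-x (-1.95 ± 0.27), Mest (-0.54 ± 0.10) and Sun2 (-0.45 ± 0.08) lower. The adjusted p of Aqp4 was 0.0486 and that of Apoe 0.0481, close to the threshold. Without both C57Bl/6 E16 arrays 6 genes were called, and with a single array left out 2 to 30, the 30 without the CD-1 E15 female and the 2 without the CD-1 E16 male or the CD-1 E17 female. The E15 to E16 count fell to 128 without the CD-1 E15 male, to 147 without the C57Bl/6 E16 female and to 152 without the CD-1 E16 male, and 203 were called without the CD-1 E15 female. From E17 to E18 no gene was called when any of the 4 E18 arrays or either CD-1 E17 array was left out.

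Gene groups had their larger steps at different ages, given here as medians without a test. The median E15 to E16 step was 0.36 for postsynaptic genes, 0.29 for ion channels and 0.33 for astrocyte genes. The median E16 to E17 step was 0.05, 0.07 and 0.37, and the E17 to E18 step 0.11, 0.11 and 0.19. For cell cycle genes the 3 steps were -0.35, -0.27 and -0.11. Grp (1.15 ± 0.19, adjusted p 0.00435), Vgf (1.35 ± 0.24, adjusted p 0.00635), Grm5 (0.94 ± 0.15, adjusted p 0.00299) and Eno2 (0.71 ± 0.10, adjusted p 0.00212) had called steps from E15 to E16. Aqp4 (0.22 ± 0.17, adjusted p 0.53), Cnp (0.18 ± 0.09, adjusted p 0.324) and Thy1, a surface protein of maturing neurons (0.27 ± 0.16, adjusted p 0.387), did not.

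**Figure D4:**
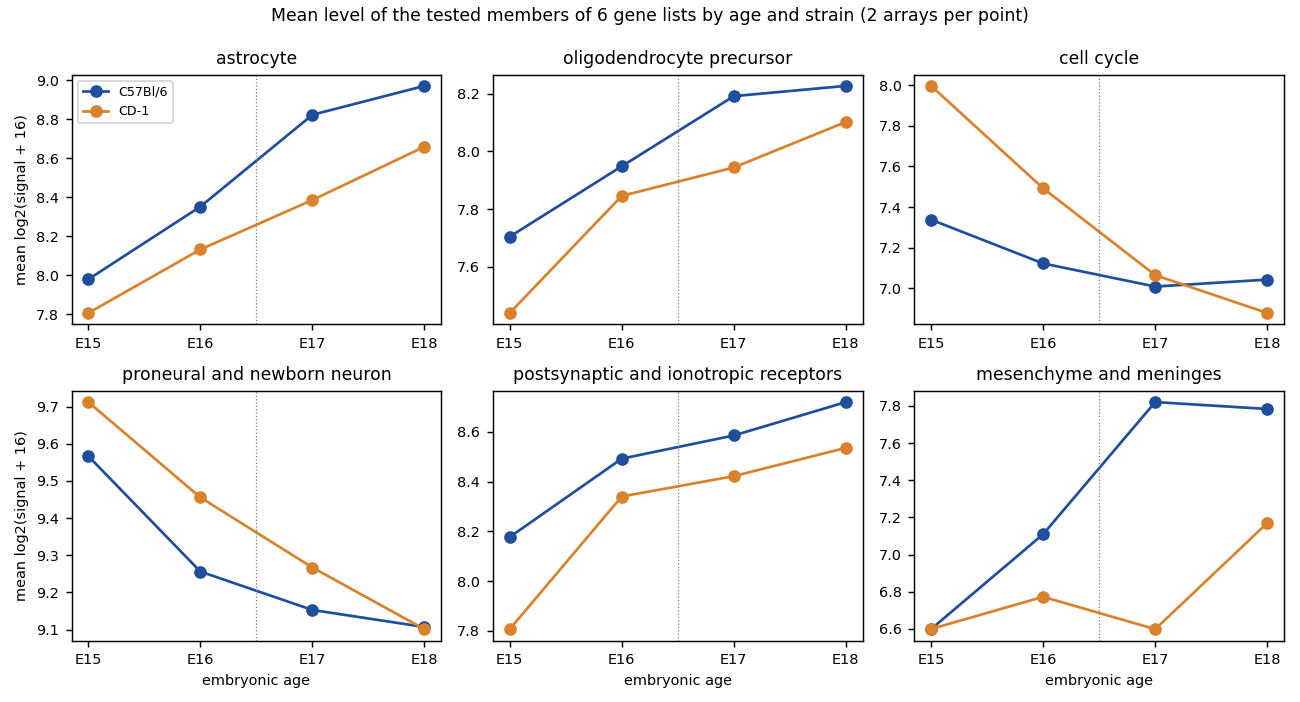
Mean log2(signal + 16) of the tested members of 6 gene lists (y axis) at E15 to E18 (x axis), C57Bl/6 in blue and CD-1 in orange, with 2 arrays per point and no error shown. Astrocyte and precursor genes climb in both strains, cell cycle and proneural genes fall from a higher start in CD-1, postsynaptic genes rise most from E15 to E16, and mesenchyme genes rise from 6.60 to 7.82 by E17 in C57Bl/6 while CD-1 stands at 6.60.

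No gene passed the threshold for a difference in response between strains or sexes. The interaction of strain with window called 0 genes by limma (937 at an unadjusted p under 0.05) and that of sex with window 0 genes (396). With C57Bl/6 alone 404 genes were higher (3.39%) and 186 lower (1.56%), and with CD-1 alone 311 (2.61%) and 217 (1.82%). In these smaller fits Apoe changed by 2.12 and 1.43, Aqp4 by 1.54 and 1.14, Slc1a3 by 0.86 and 0.97, Olig1 by 0.89 and 0.68, Mki67 by -0.61 and -1.09 and Hbb-y by -5.33 and -4.79 (C57Bl/6, then CD-1), and all 12 values were called. Ptgds was called in C57Bl/6 (3.17, adjusted p 0.00848) and not in CD-1 (1.97, adjusted p 0.117), but its difference between strains was not called (adjusted p 0.8). Without the array labelled C57Bl/6 E16 male, 1222 genes were higher (10.2%) and 958 lower (8.03%), and 1988 of the 2106 calls were made again. The counts of the lists moved by at most 2 genes: of those that moved by 2, 14 in place of 12 hypothalamic factors were lower, 7 in place of 5 cortical genes lower, 6 in place of 8 growth regulators lower, and 13 in place of 11 energy genes higher. Without E18 the counts fell to 101 higher (0.847%) and 76 lower (0.637%), and without E15 to 206 (1.73%) and 101 (0.847%). Without E17 they were 723 (6.06%) and 508 (4.26%), and without E16 1711 (14.3%) and 1383 (11.6%). With age in days as a number in place of the windows, 1615 genes rose (13.5%) and 1261 fell (10.6%). Leaving out the strain term gave 589 (4.94%) and 351 (2.94%), and fitting all 48 arrays together gave 229 (1.92%) and 172 (1.44%). The fit of 48 arrays kept the array labelled C57Bl/6 P42 male at its labelled age, and the part of that array in the counts was not tested.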

How the data were processed

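The authors deposited 1 table of MAS5-type signal intensity per probe set, on a linear scale, for 48 Affymetrix mouse 430 arrays of total RNA. GCOS 1.4 and MAS5 are named in the submitters' processing notes, and no raw image data were used here. Of 45101 probe sets, 34945 carried 1 gene symbol, 932 several, 9160 none and 64 were controls. Symbols were updated by Entrez ID through RefSeq (GRCm38.p6), with 34741 found. The 16 arrays of E15 to E18 entered the fit. Probe sets above the array median in at least 4 of the 16 arrays were kept, and the brightest one on average stood for its gene. limma 3.58.1 in R 4.3.3 was fitted on log2(signal + 16) with window and strain as terms (13 residual degrees of freedom, eBayes with trend). P-values were Benjamini-Hochberg adjusted over 11928 genes, with 0.05 as the threshold. Age steps and interactions had fits of their own on the same genes. On simulated data of 11928 genes made for the window comparison, the fit found 86.0% of the genes changed 1.5-fold, 96.7% of those changed 2-fold and 100% of those changed 4-fold, with 4.16% wrong calls. The simulated spread was drawn for each gene on its own, without variation shared between genes such as the collagen level. These shares therefore describe the simulated data and give no rate of wrong calls for the real arrays.

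The genes named are the 12 largest called rises and 12 largest called falls with 1 sign in the 4 series of strain and sex, up to 4 called genes with the largest changes per list, and a list of key genes. Other names, such as Gja1, Gjb6, Clu, Scg2, Nxph4, Sun2 and H3f3b, were added after their values were seen. The comparison, the members and the lists were chosen with earlier results of these data known. Array numbers in the tables stand for the strain and sex of a sample, which the fit carries as strain. Alternatives covered the pseudocount, scaling, filter, probe set choice, covariates, strains, sexes, ages and single arrays.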

Additional observations from a re-analysis of the deposited data

Results flagged for a closer look

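Among 155 named genes in 2 windows of 8 arrays each, 8 genes had an array whose distance from the rest, divided by the range of the window, exceeded Dixon's critical value of 0.526. Chance gives such an array in about 1 of 20 groups. In the early window the CD-1 E15 female read 179.5 for Uhrf1, against 65.0 to 106 in the other 7 arrays, and 17.7 for Trhr, against 37.9 to 65.8. The C57Bl/6 E15 female read 50.7 for the metallothionein gene Mt2 (108 to 165 in the others). The array labelled C57Bl/6 E16 male read 352 for Mt1 (179.995 to 245). The CD-1 E16 male read 2028 for the neuronal migration gene Dcx, with the others at 3715 to 5457. In the late window the CD-1 E17 female read 95.4 for the progenitor factor Dbx1 (52.4 to 67.4 in the others) and 1203 for the GABA synthesis gene Gad1 (1425 to 1656). The C57Bl/6 E18 female read 148 for the glucocorticoid receptor gene Nr3c1, against 104 to 123.

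Xist, transcribed from the inactive X chromosome of females and counted here only among the sex-linked genes, read 1846 in the array labelled C57Bl/6 E16 male, against 74.1 to 125 in the other 7 male arrays. The same array read 60.4 for the Y-linked gene Eif2s3y, below the other males and above all females. Its correlation over genes was highest with the array labelled C57Bl/6 P42 male (0.984), and the C57Bl/6 E16 female also correlated best with that array (0.974). The other C57Bl/6 arrays of E15 to E18 were close behind, at 0.971 or more with the P42 array, whose label was not tested. The part of the array labelled C57Bl/6 E16 male in the results was not tested beyond leaving it out, which gave 1222 genes higher and 958 lower.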

How the results depend on the processing

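The 2106 calls of the late versus early fetal window (1192 higher, 914 lower) moved by less than 1.5 times under both other pseudocounts, quantile normalization, median centring, both other filters, the mean of probe sets, array weights, the actin ratio, and sex or series terms (1828 to 2359 calls). They fell to 940 (589 and 351) without the strain term, to 401 (229 and 172) with all 48 arrays, to 590 (404 and 186) and 528 (311 and 217) with C57Bl/6 or CD-1 alone, to 173 (115 and 58) and 171 (111 and 60) with females or males alone, and to 683 (396 and 287) with collagen level, added after the data were seen. Without 1 age they were 307 (206 and 101, no E15), 3094 (1711 and 1383, no E16), 1231 (723 and 508, no E17) and 177 (101 and 76, no E18). The fits on parts of the arrays have fewer samples, and for the others the cause was not tested. The fit of all 48 arrays took its spread from all 12 ages and kept the array labelled C57Bl/6 P42 male at its labelled age. With single arrays left out the calls between the windows ranged from 1544 to 2425, higher 898 to 1356 and lower 643 to 1069. The strain interaction called 3 genes without a filter, 2 with mean probe sets, and 0 to 3 with an array left out (sex 0 to 0). The E15 to E16 count was 133 with array weights, 0 with all 48 arrays and 128 to 370 with an array left out. From E16 to E17 it was 4 (pseudocount 1), 18 (pseudocount 64), 17 (quantile), 5 (no filter), 25 (mean probe sets), 33 (array weights), 1 (all 48), 6 (without both C57Bl/6 E16 arrays, added later) and 2 to 30 with an array left out. From E17 to E18 it was 0 without a filter, with signal over 100, with the actin ratio and with all 48 arrays, and 0 to 1 with an array left out. The causes of these shifts were not tested.

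Of 6164 pairs of a named gene and an alternative, 5248 kept their side of the threshold (61 of them with another sign, called in neither), 895 lost a call and 21 gained one. None reversed a called direction. Of the 130 called named genes, 64 lost the call with collagen level, 61 in C57Bl/6 alone and 71 in CD-1 alone. The number of arrays limits the precision, and dim probe sets were kept out by the filter. No paired analysis was possible because the numbers of arrays stand for strain and sex, not for shared animals, and the fit with a term for each of the 4 series of strain and sex gave 1946 calls.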
